A study of Pinus elliottii with 16 samples.

Results

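Among replicate libraries of wounded, untreated slash pine cambium, some features were near 0 in a library and abundant in the next. The 150 features described here were the most variable in this sense, out of 8949 in the deposited tables. They were chosen by their values. Of the features with a mean normalized fragment count of at least 20 over the 8 control libraries, the 100 highest means were left out, which left 4880. The standard deviation (SD) of log2(value + 1) was taken over the 4 control libraries of day 5 and over the 4 of day 15, and the 150 features with the highest smaller SD were kept. The spread in the control libraries is therefore a description and no finding. What the choice did not use was which library was high, whether the same replicate was high on both days, and every value of the paste libraries.

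RNA came from the vascular cambium of 16-year-old slash pine (Pinus elliottii) that had been tapped for resin with stimulant paste every other week for a year before the experiment. In all 4 groups the bark was stripped. Control day 5 and control day 15 got no paste, and paste day 5 and paste day 15 got a streak of paste with 3% Ethrel, an ethylene-releasing compound, and 20% sulfuric acid on the fresh wound, with 4 libraries per group and 16 in all. Tissue was cut slightly above the wound 5 or 15 days later, and rRNA-depleted RNA was sequenced single-end. The labels call the libraries biological replicates and mention 4 trees picked at random, without tying a library to a tree, so p-values measure the spread between these libraries. The controls carry a year of earlier tapping as well, and no group received the acid or Ethrel alone.

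The cambium is the thin layer of dividing cells that forms wood to the inside and bark to the outside, and it also lays down the resin ducts that tapping opens. Pine resin is a mixture of terpenes made by the cells that line these ducts, and wounding, ethylene and acid are used in forestry to increase its flow. A treatment effect in such tissue is read against the spread between replicate libraries, which is what the features here have most of. The files pair no identifier with a gene name, so no role can be given to a member and the cambium could not be checked by its marker genes. In bulk tissue, fewer cells of a type and less RNA per cell cannot be told apart.

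The libraries held 3323971 to 5203943 estimated fragments. The worth of 1 fragment on the normalized scale was 0.688 to 1.56, and a floor of 3 fragments was 2.07 to 4.67. Replicate 1 of paste day 5 and replicate 1 of paste day 15 were almost the same library, with a correlation of 0.985 across the 4880 features. Paste day 15 replicate 3 correlated at 0.905 to 0.941 with paste day 5 replicates 2, 3 and 4. Both facts touch the paste results, and the main ones are also given without these 3 libraries together (both paste replicate 1 libraries and paste day 15 replicate 3).

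The smaller control SD of the members ran from 1.49 to 3.96 with a median of 2.02 on the log2 scale. The median distance between the lowest and the highest control library was 5.04 log2 units at day 5 and 5.79 at day 15. Members were low features, with a median control mean of 56.1 against 235 for the 4880. PITA_000016651 was the last member, at an SD of 1.492, and PITA_000023856 the first feature outside, at 1.490. Inside the limit before it stood PITA_000019849 at 1.51, and the next outside was PITA_000040487 at 1.489, so the limit falls in a continuous range. Of the members, 133 (88.7%) had PITA identifiers, which made up 67.5% of the 4880, and 8 (5.33%) had PITAhm identifiers, which made up 25.2%. The other 9 (6%) had transcript names in place of a locus identifier, against 7.30%. The authors' tables marked 4 of the 150 as low-data features.

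**Figure D1:**
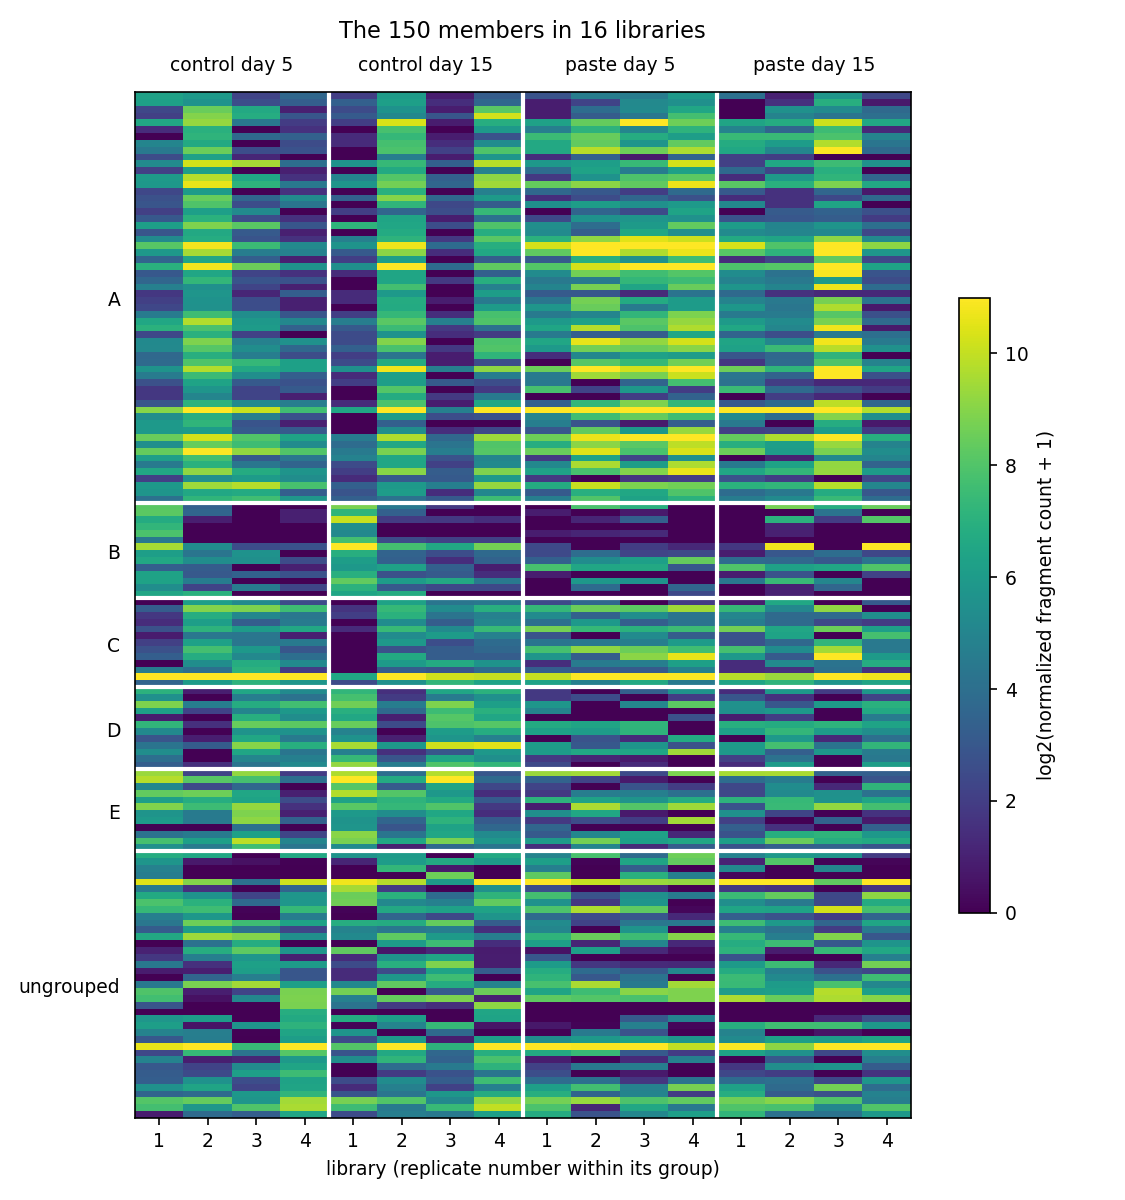
Normalized fragment count of the 150 members (rows) on a log2(value + 1) colour scale in the 16 libraries (columns), with members grouped by how their control values moved together (groups A to E and ungrouped); colours stop at 11. Dark and bright cells alternate within each group of 4 libraries, and many members have the same dark or bright replicate number at control day 5 and control day 15.

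The clearest pattern was that the members repeated from day 5 to day 15 by replicate number. PITA_000018000, the most variable member, was at 246, 0.923, 3.78 and 445 normalized fragments in control day 5 replicates 1 to 4. At control day 15 it was at 420.0, 0, 7.59 and 366. Replicates 1 and 4 were high and replicates 2 and 3 at or near the floor on both days. PITA_000056235 was at 89.7, 125, 0 and 0 at day 5 and at 88.7, 107, 0 and 0 at day 15, so replicates 1 and 2 carried all of its control signal. PITA_000063589 was at 657, 3.69, 602 and 2.92 at day 5 and at 823, 14.9, 840.4 and 6.72 at day 15. Here replicates 1 and 3 were high. PITA_000095401 was at 331, 384, 89.5 and 0.972 at day 5 and at 840.0, 265, 58.2 and 1.68 at day 15, with replicate 4 alone under the floor. PITA_000077593 was at 288, 9.22, 0 and 0 at day 5 and at 437, 20.5, 2.52 and 0 at day 15, high in replicate 1. At day 5 a different set of numbers was thus at 20 or more for each of these 5 members. At day 15 PITA_000077593 and PITA_000056235 shared replicates 1 and 2 at that limit.

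The member in rank 4, a transcript-named feature, did the opposite. It was at 202, 0.406, 32.9 and 448 at control day 5 and at 26.6, 341, 458 and 1.01 at control day 15. Replicate 4 was its highest library on the first day and its lowest on the second, and its correlation over the 4 numbers was -0.80. PITA_000014661, in rank 15 and picked after its values were seen, was at 1.06, 116, 307 and 52.4 at day 5 and at 319, 0.609, 1.37 and 0.775 at day 15, so that every number changed sides.

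**Figure D2:**
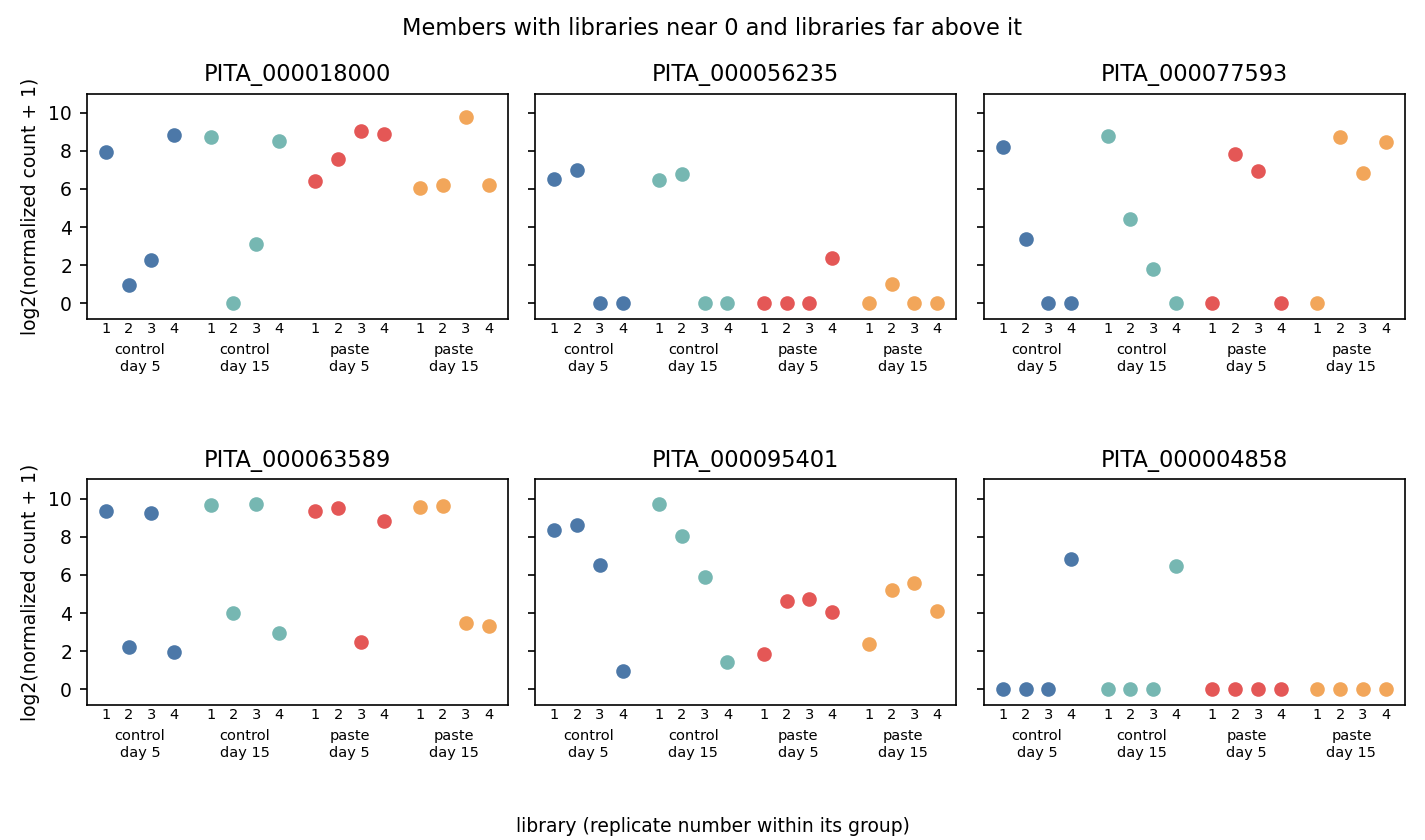
Normalized fragment count on a log2(value + 1) axis of 6 members in each of the 16 libraries, by group and replicate number; each point is 1 library. In the control groups the high and low numbers of these 6 are the same on both days, except replicate 2 of PITA_000077593. There the value was 9.22 at day 5 and 20.5 at day 15. The paste groups show other patterns. PITA_000004858 is listed at 0 in 14 libraries. Shown are the members in ranks 1, 2, 3, 5 and 6, and PITA_000004858 from rank 12. The member in rank 4, with a correlation of -0.80 between the control days, is not shown, so the panels are no sample of the members.

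Over all 150 members, 90 (60%) had the same replicate number highest on both control days, against 33.8% of the 4730 other features that met the level limits. The same number was lowest in 71 members (47.3%), against 34.6%. The median correlation of a member over the 4 numbers was 0.71, against 0.29 in the other features. It was above 0.9 in 52 members (34.7%, against 10.04%), below 0 in 20 (13.3%, against 35.4%), and in between in 78. In ranks 151 to 300, just outside the members, the median correlation was 0.68 and the same number was lowest in 48%. There the correlation was below 0 in 11.3% and above 0.9 in 20%, and the same number was highest in 51.3%. The repeat by number was thus not particular to the members. Between the days, a member differed by a median of 1.40 log2 units (2.64-fold) within a number and by 2.71 (6.53-fold) between numbers. The other features differed by 0.40 and 0.45. These are descriptions over features that share the same 8 libraries, and they carry no p-value.

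The deviations of the members from their group mean gave the same picture library by library. Control day 5 replicates 1 to 4 correlated with the control day 15 library of the same number at 0.59, 0.74, 0.51 and 0.28. With the libraries of other numbers the correlations lay between -0.54 and 0.23, and each of the 4 day 5 libraries was closest to its own number. In the 4730 other features each day 5 library was also closest to its own number, at 0.165, 0.485, 0.20 and 0.340, with -0.296 to 0.165 for other numbers. The members' value was thus higher for numbers 1, 2 and 3 and lower for number 4. The correlations were over features of the same pairs of libraries. The numbers did not pair the treatments: members of paste and control libraries with the same number correlated at -0.24 to 0.17 at day 5 and at -0.48 to -0.12 at day 15. Nor did they pair the paste days, where replicate 1 of both days, the near-identical libraries, gave 0.57 and replicates 2, 3 and 4 gave -0.12, 0.04 and -0.16.

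**Figure D3:**
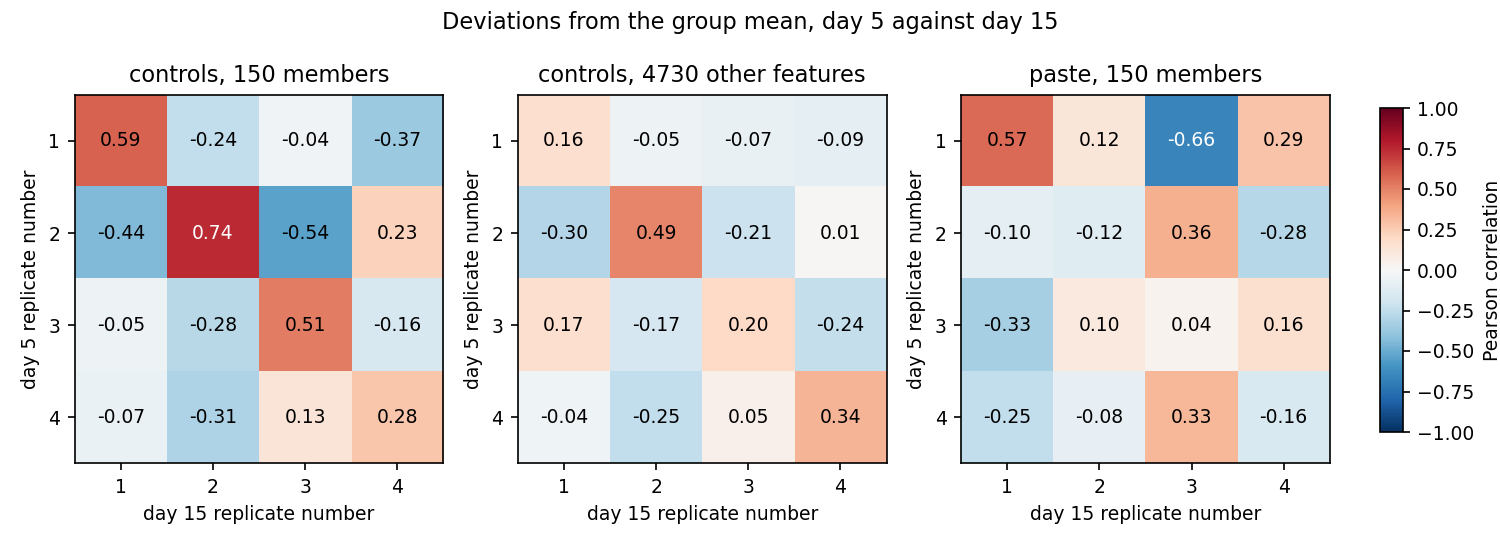
Pearson correlation of log2 deviations from the group mean between each day 5 library (rows) and each day 15 library (columns) for the controls over the 150 members, the controls over 4730 other features, and the paste libraries over the 150 members. In both control panels the diagonal is the highest value of every row, while in the paste panel only the near-identical replicate 1 pair stands out on the diagonal.

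The measures of agreement did not all follow the rank. In the first 50 members, libraries of the same number differed by a median of 1.05 log2 units and those of different numbers by 3.34. In ranks 51 to 100 the values were 1.60 and 2.83, in ranks 101 to 150 1.59 and 2.38, and in ranks 151 to 300, outside the members, 1.21 and 1.85. From rank 3501 on they were 0.25 and 0.26. The difference between numbers is tied to the SD that set the rank, so its fall along the ranks is no finding. The share with the same number highest was 52%, 66% and 62% in the 3 blocks of 50 members, 51.3% in ranks 151 to 300 and 27.5% from rank 3501 on. The correlation between the days was above 0.9 in 48%, 30% and 26% of the 3 blocks but below 0 in 24%, 8% and 8%, so the first 50 members held the most of both kinds among the 3 blocks.

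**Figure D4:**
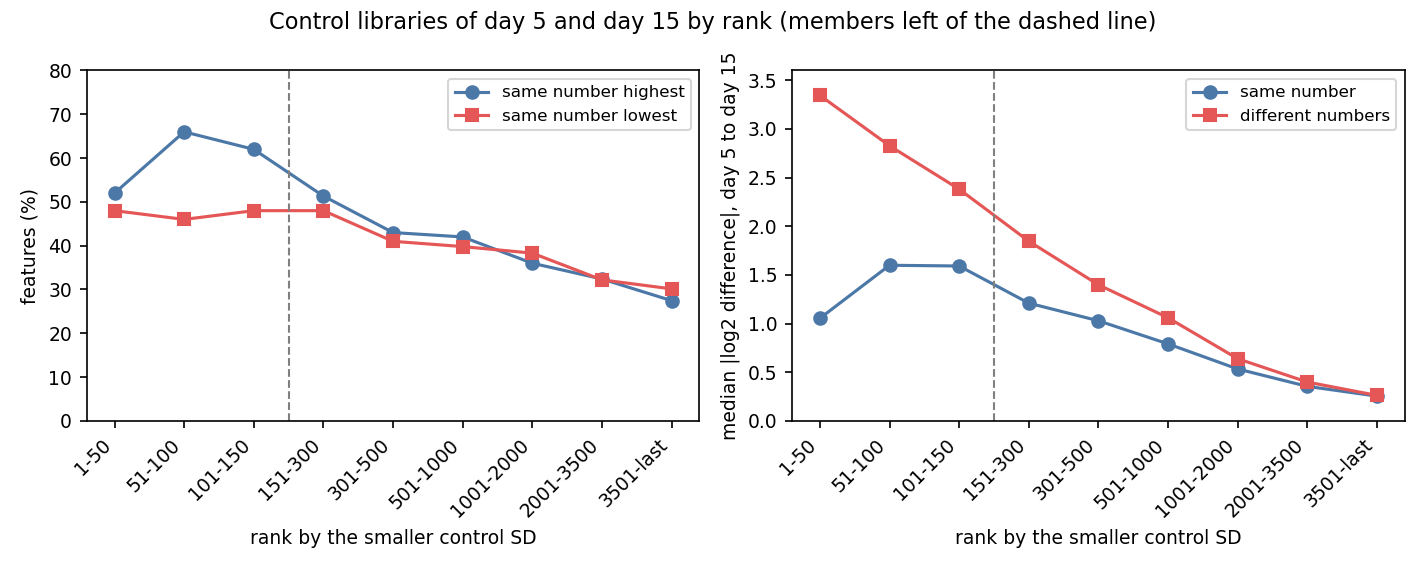
Agreement of the control days by rank of the smaller control SD, with members left of the dashed line. Left, the percentage of features with the same replicate number highest (blue) or lowest (red) on both days; right, the median absolute log2 difference between day 5 and day 15 libraries of the same number (blue) and of different numbers (red), which separate most in ranks 1 to 50 at 1.05 and 3.34.

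Many members were close to switched off in some libraries. In 64 members, each control day had at least 1 library at or under the floor of 3 fragments (within 0.1 fragment) and at least 1 at 20 or more. Among the 4880 features there were 65 such cases. A low and a high library on each control day is close to what the rule chose. The members' part of these cases is therefore built in. In 46 of the 64, at least 1 number was at or under the floor on both days, and in 27 exactly the same numbers were. In 37 no number went from at or under the floor to 20 or more or back, and the other 27 had a number that changed sides. An exact 0 in a control library was listed for 62 members, and 92 of the 4880.

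For 4 members a single replicate number was at 20 or more on both control days and the other 3 were at or under the floor. Among the 4880 features there were also 4. Such a pattern gives a wide spread on both days, so its place among the members is largely built in. PITA_000004858 was at 114 and 87.4 in control replicate 4 of day 5 and day 15 and was listed at 0 in the other 14 libraries. PITA_000082067 was at 150.3 and 42.0 in control replicate 1, at 0 in the other control libraries and at most at 0.998 with paste. PITA_000078935 was at 234 and 34.2 in control replicate 1, at 0 in the other controls and at most at 1.51 with paste. In these 3 members no paste library reached the floor. PITA_000020926 was at 107 and 1083 in control replicate 1 and at most at 2.79 in the other controls, but with paste it reached 135 and 269 in day 15 replicates 2 and 4. PITAhm_003135, in rank 7, was close to this pattern, at 443 and 556 in control replicate 4, at no more than 17.1 in the other controls and at 0 in all 8 paste libraries. In all, 6 members were at or under the floor in every paste library, and 3 of them were listed at 0 in all 8. Among the 4880 features there were 7 and 3. The rule asked for a control mean of at least 20, so features absent from the controls could not be members. No effect of paste is read from these counts.

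The reverse, a single number at or under the floor on both days and the others at 20 or more, held for 8 members. PITA_000066750 was at 0 in control replicate 1 on both days, at 41.5, 109.7 and 36.0 in the others at day 5 and at 65.1, 105 and 48.7 at day 15. With paste it was low in replicate 1 as well, at 1.73 and 1.65 in the near-identical libraries, and at 17.2 to 112 in the other 6. PITA_000060334 was at 0 in control replicate 3 on both days and at 49.8 to 112 in the other controls. Its paste values ran from 2.75 to 384. PITA_000095401, PITA_000060589 and PITA_000017868 were low in number 4 alone, PITA_000052773 in number 3, and PITA_000038378 and PITA_000015706 in number 2. Each of the 4 control numbers was thus the only low number of at least 1 member.

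Clustering on the control deviations, with a mean correlation of at least 0.5, put the members into 5 groups of at least 10 and left 39 ungrouped. Group A held 60 members, and its median level at control day 5 was 146 in replicate 2 and 8.26 to 22.6 in the others. At control day 15 it was 107.9 in replicate 2 and 66.8 in replicate 4, against 3.11 and 2.11 in replicates 1 and 3. Replicate 2 was therefore high on both days and replicate 4 on day 15 alone. PITA_000008252, a member closest to the group's mean profile, was at 339, 2895, 589 and 257 at control day 5 and at 21.8, 435, 24.4 and 276 at control day 15. The other such member, a transcript-named feature, was at 21.8, 129, 18.9 and 10.7 and then at 4.67, 89.3, 3.37 and 35.3. Both followed the group, and both had an r between days of about the group's size, 0.46 and 0.57.

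By correlation, the repeat by number was lower in group A than in the rest, and by the highest library it was not. Only 6 of its 60 members had a correlation above 0.9 between the days, and the median was 0.39, against 0.91 in the other 90 members. The same number was highest on both days in 37 of the 60 (61.7%) and in 53 of the 90 (58.9%). The groups were formed from these same libraries, so the contrast is a description. The median of group A depended on numbers 2 and 4. Without number 2 on both days, the median of group A was -0.70 and the same number was highest in 9 of 60. Without number 4 the median was 0.93 and the count was 54. The median of the other 90 members stayed at 0.91 to 0.95 whichever number was left out. For all 150 members it was 0.48 without number 2 and 0.93 without number 4, against 0.19 and 0.21 in the features that are no members.

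The 4 smaller groups each marked a number. Group B, 14 members, was high in control replicate 1, with medians of 92.9 and 127 on the 2 days against at most 9.30 in the other controls. PITA_000030806 was closest to its mean beside PITA_000077593, at 301, 11.1, 0 and 0.972 at day 5 and at 145, 9.30, 0 and 0 at day 15. Group C, 13 members, was low in control replicate 1, with medians of 5.66 and 0 against 18.5 to 77.5 in the others. PITA_000093799 was at 0, 71.1, 37.8 and 4.86 and then at 0, 81.0, 18.5 and 20.2. PITA_000001634 was at 8.08, 498, 458 and 191 and then at 2.19, 166, 38.8 and 122. Replicate 1 was the lowest library of both on both days.

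Group D, 12 members, was low in control replicate 2, with medians of 0.923 and 3.72 against 38.4 to 158 in the others. PITA_000010875 was at 149.5, 1.85, 343 and 300.3 and then at 345, 4.65, 245 and 276. PITA_000003520 was at 14.5, 0, 31.5 and 26.2 and then at 166, 6.51, 84.3 and 43.7. In both, replicate 2 was clear of the other controls on each day. Group E, 12 members, was low in control replicate 4, with medians of 3.40 and 7.56, and next lowest in replicate 2, at 22.6 and 29.8. PITA_000013464 was at 218, 72.01, 945 and 30.1 and then at 442, 93.0, 443 and 54.6. PITA_000017868 was at 50.9, 22.2, 473 and 0.972 and then at 60.7, 40.9, 92.7 and 1.68. Replicates 1 and 3 were the high libraries of both.

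**Figure D5:**
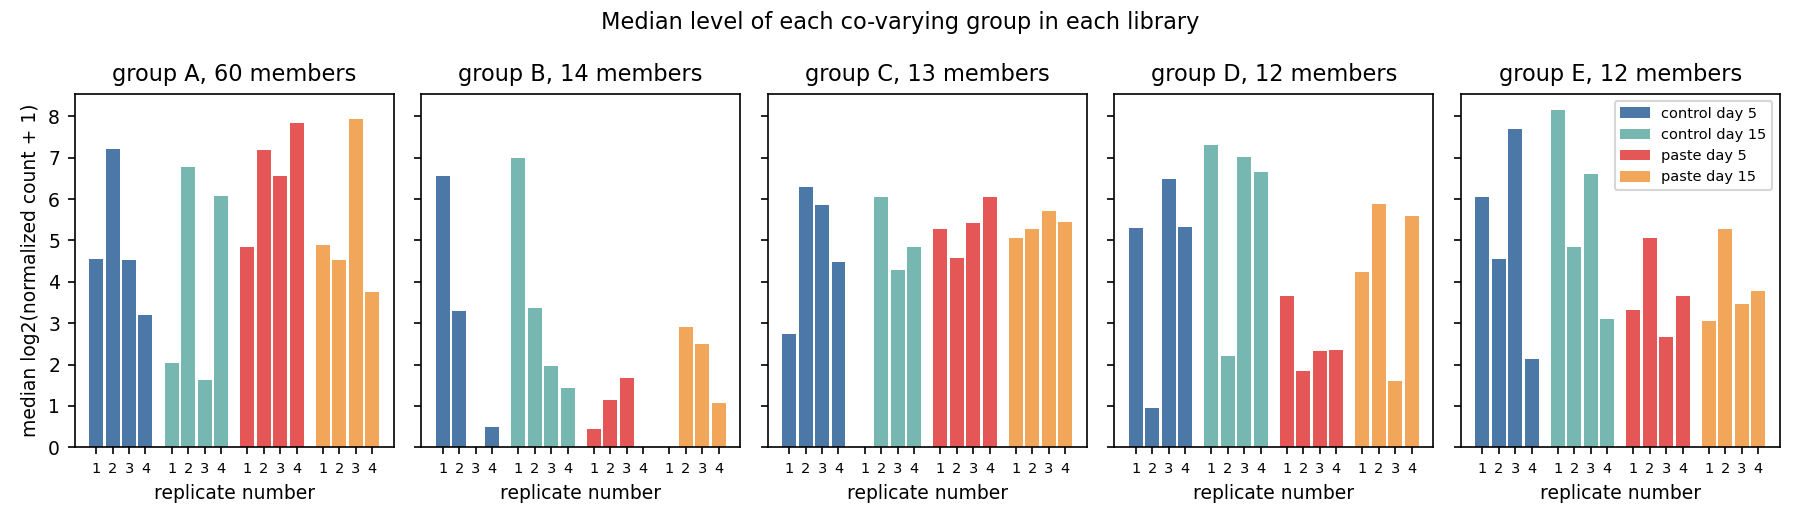
Median of log2(normalized fragment count + 1) over the members of groups A to E in each of the 16 libraries, by replicate number; bars carry no error because each stands for 1 library. Group B is high in control replicate 1 and group C low there, group D is low in control replicate 2 and group E in control replicate 4, and group A is high in replicates 2, 3 and 4 of paste day 5 and in replicate 3 of paste day 15.

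The grouping did not use the paste libraries. The median correlation between pairs of group A members was 0.80 over the control deviations that formed the group and 0.59 over the 8 paste libraries. In groups B to E it was 0.73 to 0.84 over the controls and -0.09 to 0.16 over the paste libraries. Over all pairs of the 4880 features it was near 0 in both. Of the 5 groups, A thus had the highest value with paste. Without the 3 libraries it was 0.31 in group A and -0.02 to 0.14 in groups B to E. Its median level was 146, 93.9 and 229 in paste day 5 replicates 2, 3 and 4 and 27.7 in replicate 1, and at day 15 it was 245 in replicate 3 and 12.4 to 28.5 in the others. The high paste libraries were paste day 15 replicate 3 and the 3 paste day 5 libraries it resembled over all features, and the part of that resemblance in the values of group A was not tested.

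PITA_000077593, of group B, had other high libraries with paste than in the controls. It was at 0, 229, 121 and 0 in paste day 5 replicates 1 to 4 and at 0, 414, 114 and 348 at paste day 15, so replicate 1 was at 0 where control replicate 1 had been highest. PITA_000056235 of the same group was listed at 0, 0, 0 and 4.27 and at 0, 0.998, 0 and 0. Its single paste value above 1 fragment was at the floor. PITA_000063589, of group E, was at 654, 720.0, 4.54 and 449.6 at paste day 5 and at 764, 781, 10.02 and 8.95 at paste day 15. It was high in replicates 1 and 2 and low in replicate 3 on both days, while replicate 4 changed sides.

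Members were also more variable than most features in the paste libraries. Their median SD was 1.65 at paste day 5 and 1.87 at paste day 15, against 0.50 and 0.59 over the 4880 features. At day 5, 142 of 150 members (94.7%) were above the median of the 4880 and 79 (52.7%) above its 90th percentile. At day 15 the counts were 137 (91.3%) and 76 (50.7%). Without paste day 15 replicate 3 the median SD at day 15 was 1.18, against 0.34 over the 4880. Without the near-identical replicate 1 it was 1.36 at day 5, against 0.45. A paste library at or under the floor and another at 20 or more was found for 66 members (44%) and for 7.99% of the 4880, and without the 3 libraries for 53 (35.3%) and 6.43%. The members' control means were lower than those of the 4880, with medians of 56.1 and 235, and the part of level in these spreads was not tested.

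Control replicate 2 was the highest library of 71 members at day 5 (47.3%, against 23.3% of the 4880) and of 56 at day 15 (37.3%, against 25.5%). The lowest library was most often control day 5 replicate 4, in 56 members (37.3%, against 25.1%). At control day 15 it was replicate 1 in 55 members, a share near that of all features (36.7%, against 34.0%), and replicate 3 in 50 (33.3%, against 19.7%). Control day 15 replicate 1 also had the fewest estimated fragments of all 16 libraries, 3323971, and the part of depth in its low values was not tested. With paste, the highest library was most often day 5 replicate 4, in 52 members (34.7%, against 24.8%), and day 15 replicate 3, in 72 (48%, against 40.1%). The lowest paste library was most often day 5 replicate 1, in 70 members (46.7%, against 29.6%), and day 15 replicate 4, in 54 (36%, against 22.0%).

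The comparisons between groups asked whether the paste, or the time since wounding, moved these features beyond such spread. Of 150 members, 141 reached a value of 10 in 4 libraries or more and entered a fit with 5856 features (limma on log2(value + 1), Benjamini-Hochberg adjusted p below 0.05 over all features). Because control spread chose the members and enters their error, the median standard error was 1.52 log2 units against 0.41 over all features, so a low count of calls is in part built into the choice. For paste against control at day 5, 0 members passed, where 0.632% of all features did. Counts of members at an unadjusted p below 0.05, here and below, are out of these 141. At that limit stood 17 of 141 members, 12 of them higher with paste, where 17.4% of all features did. The count moved to 31 without control day 5 replicate 2 (15.1% of all features), 26 without paste day 5 replicate 1 (19.8%), 10 without paste day 5 replicate 2 (13.3%), 11 without paste day 5 replicate 4 (15.2%) and 29 without the 3 libraries (28.6%). The median log2 change of the 141 members was 0.36, against -0.05 over all features. It had no stable direction, at -0.04 without control day 5 replicate 1, 0.02 without control day 5 replicate 4 and 0.86 without control day 5 replicate 2. Without paste day 5 replicate 4 it was 0.22, and without paste day 5 replicate 1, alone or with the other doubted libraries, it was 0.65.

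PITAhm_001539, of group A, had the smallest p of the members in that comparison. It was at 129.6, 574, 1454 and 1106 in the paste day 5 libraries and at 38.0, 109.9, 6.31 and 1.94 in the controls, so all 4 paste libraries were above all 4 controls. Paste against control gave an estimate of 5.08 log2 units (SE 1.40, limma adjusted p = 0.128, n = 4 per group), which did not pass. Without both paste replicate 1 libraries and paste day 15 replicate 3 it was 5.80 (limma adjusted p = 0.0320), a setting in which 9.17% of all features and 2 of 141 members passed. The other of these 2, PITA_000019445 of group D, was at 29.4, 0, 0 and 0 with paste and at 75.2, 3.69, 30.3 and 57.3 in the controls of day 5. In that setting its log2 change was -4.83 (SE 1.00, limma adjusted p = 0.0165), and the paste library above 0 was the replicate 1 left out there.

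Groups A and D had estimates of opposite sign at day 5. In group A, 45 of 58 tested members had a positive estimate with a median of 1.73, and 9 of the 10 at an unadjusted p below 0.05 were positive. In group D, 10 of 12 were negative with a median of -2.11. Over all features, 2763 of 5856 estimates were positive. Members of a group moved together in the control libraries, so their signs are not independent observations. No member of either group passed the adjusted threshold in the fit of all 16 libraries, and the groups were formed on values of the same control libraries. Without control day 5 replicate 2, high in A and low in D, the medians were 2.54 and -3.10. The sign of neither median turned at day 5 when any 1 library was left out, with a range of 1.27 to 2.54 for A and -3.10 to -1.52 for D. No test of the difference between the groups was made.

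For paste against control at day 15, 0 members passed and 0% of all features did. There were 14 of 141 members at an unadjusted p below 0.05, 6 of them higher, where 9.2% of all features were. The count was 28, with 19 higher, without control day 15 replicate 2 (10.8% of all features), and 8 without control day 15 replicate 1 (5.91%). It was 7 without paste day 15 replicate 1 (7.46%), 9 without paste day 15 replicate 3 (5.72%) and 2, with 0 higher, without the 3 libraries (4.25%). PITA_000048284, of group C, had the smallest p. It was at 216, 39.9, 713 and 20.7 with paste and at 0, 5.58, 8.43 and 11.8 in the controls, with no overlap. The fitted log2 difference was 4.35 (SE 1.23, limma adjusted p = 0.359), and without the 3 libraries it was 2.49 (limma adjusted p = 0.979). At day 5 the same member was at 217, 558, 368 and 195 with paste and at 5.66, 208, 56.8 and 6.80 in the controls, where the groups overlapped. In group A, 42 of 58 estimates at day 15 were positive, where 2830 of 5856 over all features were. The median of group A was 0.92, which fell to 0.16 without paste day 15 replicate 3 and to 0.19 without control day 15 replicate 3. With any 1 library left out it ranged from 0.16 to 1.84, the highest without control day 15 replicate 2. With library quality weights it was -0.13, with 25 of 58 positive. Without both paste replicate 1 libraries and paste day 15 replicate 3 together it was -0.19, with 24 of 58 positive.

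The rule chose members for wide control groups, so overlap in the comparisons that hold controls was largely built in, and nothing is read from those shares. At day 5, 4 of the 141 tested had paste libraries all on 1 side of the controls (2.84%, where 13.1% of all features tested did), PITAhm_001539 higher and PITA_000056326, PITA_000053311 and PITA_000008719 lower. At day 15 it was PITA_000048284 alone (0.709%, against 3.64%). Of the 9 members outside the test, PITA_000083572 was lower at day 5 and PITAhm_003135 and PITA_000090075 were lower at day 15 without overlap. PITAhm_003135 was at 0 in every paste library, and at least 1 of its control day 15 libraries was itself at or under the floor. Its lack of overlap thus includes a difference under the floor. No share over features outside the test is given, so nothing is read from these cases. For control day 15 against day 5 the count was 0, where 13.2% of all features had no overlap. For paste day 15 against day 5, the comparison with no control library, it was 2 (1.42%, where 0.717% had none), PITA_000013907 higher and PITA_000017889 lower.

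Between the control days, 0 members passed and 0% of all features did in the fit of all 16 libraries. At an unadjusted p below 0.05 there were 5 of 141 members, where 9.99% of all features were. The members' median log2 change was -0.18. With any 1 library left out the count was 2 to 11, where 6.34% to 14.7% of all features were. The median then ranged from -0.81 without control day 15 replicate 2 to 0.24 without control day 5 replicate 2. It was also above 0 without control day 15 replicate 1 (0.07) and without control day 15 replicate 3 (0.09), and at -0.59 without control day 5 replicate 4 and -0.61 without control day 15 replicate 4. PITA_000070537 had the smallest p, at 0, 0, 16.4 and 0 on day 5 and at 52.9, 6.51, 79.2 and 11.8 on day 15. The fitted log2 difference was 3.64 (SE 1.22, limma adjusted p = 0.340). Replicate 3 was its highest library on both days, and its day 5 value of 16.4 lay above 2 of the day 15 values.

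Since the control numbers paired across the days, the control groups were also fitted alone with the number as a block, which was added after the data were seen. The pairing was read from the same control values, so the p-values of this blocked fit rest on it. There the median standard error of the members fell to 0.76, against 0.26 over all features. At an unadjusted p below 0.05, 26 of 141 members stood, 16 of them higher at day 15, where 23.3% of all features did. With adjustment 1 member passed, where 0.768% of all features did. PITA_000064044 was at 102, 48.0, 3.78 and 54.4 at day 5 and at 372, 131, 13.5 and 140.3 at day 15. It was higher at day 15 in 4 of 4 numbers, although replicate 3 was far below the others on both days. The fitted log2 difference was 1.56 (SE 0.22, limma adjusted p = 0.0489). With paste it was at 212, 6.0, 45.4 and 21.3 at day 5 and at 178, 334, 4.29 and 565 at day 15, without such an order.

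Between the paste days, 0 members passed and 0% of all features did. There were 4 of 141 members at an unadjusted p below 0.05, where 3.65% of all features were. Without paste day 15 replicate 3 there were 19 (26.7% of all features), and without the 3 libraries 32 (36.9%). With another library left out the count was 2 to 8, the highest without paste day 5 replicate 1. PITA_000013907 had the smallest p, at 0.644, 0.0615, 26.3 and 0.141 on day 5 and at 118, 197, 197 and 57.4 on day 15. The fitted log2 difference was 5.56 (SE 1.68, limma adjusted p = 0.819), and the groups did not overlap. Its controls went from 71.4, 0.483, 51.4 and 137 to 0.0679, 30.0, 164 and 0.547, so each day had libraries near 0 and libraries above 20. It also had the smallest p among members for the difference of the paste effects between the days, 7.19 (SE 2.38, limma adjusted p near 1). In that test 0 members passed, 0% of all features did, and 1 member stood at an unadjusted p below 0.05, where 1.06% of all features were. The comparisons share libraries, so the values of a member in them are not independent.

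The members' median log2 change between the paste days was -0.70, against 0.02 over all features. With any 1 library left out it stayed below 0. The lowest median was -0.99, with paste day 15 replicate 3 left out, and the one closest to 0 was -0.31, with replicate 4 of that group left out. It was -0.42 without paste day 5 replicate 4, -0.46 without paste day 15 replicate 1 and -1.20 without the 3 libraries. In group A 56 of 58 estimates were negative, with a median of -1.35, where 3036 of 5856 over all features were positive. Group A members moved together in the control and paste libraries, so their signs are not independent observations. Without paste day 15 replicate 3 the median of group A was -2.28 with 57 negative. With any 1 library left out the median ranged from -2.28 to -0.88, the latter without paste day 15 replicate 4. Without paste day 15 replicate 3 and the near-identical pair, 10 of 141 members passed, 5 in each direction, where 19.7% of all features did. The median of group A was then -3.16, and 3 of its 58 passed. The paste day 5 group then held replicates 2, 3 and 4 and the paste day 15 group replicates 2 and 4, so the comparison rests on 5 paste libraries.

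The features whose pattern over the 16 libraries was most like PITA_000018000 were no members. PITAhm_001343 correlated with it at 0.84, PITA_000051013 at 0.81 and PITA_000079329 at 0.81, on log2 values of all 16 libraries that share depth and scaling. PITAhm_001343 ran from 20.5 to 59.1 and was also lowest in control replicate 2, at 21.2 and 20.5, but it moved by a small part of the range of PITA_000018000. PITA_000079329 was at 225, 31.4, 105 and 152 in control day 5 and at 523, 30.7, 68.3 and 187 in control day 15. It shared the low replicate 2 and the high replicates 1 and 4. With paste PITA_000018000 was at 85.5, 188, 527 and 472 at day 5 and at 66.0, 72.8, 884 and 73.0 at day 15. None of its 8 paste libraries was near the floor, while control replicates 2 and 3 were at it, under it or close above it on both days.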

How the data were processed

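RNA-seq libraries of 4 groups with 4 replicates each were analysed from the per-sample tables. Reads were handled with Trimmomatic 0.32, FastQC, Cufflinks 2.1.1 and HISAT2 2.0.4, per the submitters' processing notes, which give no order. Not given in the sources used here were the build, annotation, strand setting and treatment of multi-mapping reads, so fragments of near-identical or overlapping features may be shared between them. The deposited value is a scaled signal, the authors' estimated fragment count per feature divided by a library size factor, as the file headers and values show. Between 96.9% and 98.1% of low values lay within 0.1 of a whole number of fragments. Because the rest were fractional, no count model was run.

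Values were used as log2(value + 1). Features that reached 10 in 4 or more libraries (5856 of 8949; 1214 were at 0 throughout) were fitted with limma 3.58.1 in R 4.3.3, with 4 group means over 16 libraries, intensity trend, robust variance and Benjamini-Hochberg adjustment over all features. P-values are two-sided, with a threshold of 0.05. Fold changes on this scale understate changes of low features. Fits and the choice of members were tested on simulated data. The simulated noise was independent and normal, with its SD capped below the control SDs of the members. Simulated group changes were thus not placed in features as variable as the members.

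The named members are the 6 most variable, those at the limit of the rule, the smallest p per contrast, 2 per co-varying group and the 3 features most like the first. Other names are said to be chosen after seeing values or belong to small counts. Groups came from average-linkage clustering on correlations of control deviations. The members and lists were chosen with earlier results of these data known. Sequences and gene names were not used here.

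The control replicate numbers were taken to pair the days from the data. Same-numbered control libraries correlated at more than 0.1 in all 4 pairs (0.28 to 0.74 over members). Libraries of different numbers reached 0.23, so this cut alone does not single out the pairs, although each day 5 library was closest to its own number. The block thus rests on a pairing read from the control values it was fitted to. The labels do not state a pairing. Alternatives covered scaling, filters, pseudocounts, library weights, the replicate block and left-out libraries. The block on control groups alone, the left-out numbers for the agreement of the control days, and the pair correlations and floor counts without the 3 doubted paste libraries were added after seeing the data.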

Additional observations from a re-analysis of the deposited data

Results flagged for a closer look

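In groups of 4 libraries, a value was picked out where its gap to the nearest other library took a share of the group's log2 range above Dixon's 95% critical value. Of 80 groups examined, 11 had such a library. Chance flags about 1 in 20 groups of normal values, but the members here were chosen for wide spread. Where the other libraries of a group were at 0, any value above 0 was flagged. No excess over chance is therefore read from the count. PITA_000018000 was at 884 in paste day 15 replicate 3, with the others at 66.0 to 73.0. That library also had PITA_000030806 at 17.2, with the others at 0. PITA_000056235 had 4.27 in replicate 4 of paste day 5 and 0.998 in replicate 2 of paste day 15, with 0 in the other libraries of each group. These 2 values are 3 fragments and 1 fragment.

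PITA_000063589 was at 4.54 in paste day 5 replicate 3, with the others at 449.6 to 720.0. PITA_000013907 was at 26.3 in the same library, with the others under 1 fragment. PITA_000070537 was at 16.4 in replicate 3 of control day 5 and at 11.2 in replicate 1 of paste day 5, with 0 in the other libraries of each group. PITA_000010875 was at 4.65 in control day 15 replicate 2, with the others at 245 to 345, and at 0 in paste day 5 replicate 4, with the others at 85.2 to 145. Control day 15 replicate 1 had 3323971 estimated fragments, with the others of its group at 4547982 to 4798513.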

How the results depend on the processing

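For each of the 5 comparisons, 0 members passed with any 1 library left out. With library quality weights 2 members passed for paste against control at day 5, PITA_000071134 and a transcript-named feature, where 7.19% of all features did. Without both paste replicate 1 libraries and paste day 15 replicate 3, 2 passed at day 5 and 10 between the paste days, and PITAhm_001539 had a log2 change of 5.80 (limma adjusted p = 0.0320). With any 1 library left out its change was 4.22 to 5.97.

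The replicate block over the control groups alone gave 1 member for control day 15 against day 5, where the fit without pairing gave 0. The block over all 16 libraries, where the numbers do not pair the treatments, gave 0 members in all 5 comparisons.

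Of the 150 members, 82 were kept with a minimum control mean of 50. A higher minimum only takes features out, so these are the members with a control mean of at least 50. When a control library was left out, 97 to 134 were kept, the fewest without control day 5 replicate 2. With a pseudocount of 4 the members' median SD at paste day 5 was 1.41, and without the near-identical pair 1.36. With a library left out it was 1.36 to 1.77 at day 5 and 1.18 to 2.05 at day 15. The same number was highest on both control days in 67 to 113 members, and the median correlation between the days was 0.48 to 0.93, with a number left out. The cause was not tested for any of the other shifts.

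As 1 fragment was worth up to 1.56, differences under the floor of 3 fragments were not detectable. With 4 libraries per group, and a median standard error of 1.52 log2 units, changes of several fold in a member could not be called.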

Other observations

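The 52 members with a correlation above 0.9 between the control days were compared in the paste libraries, which that choice did not use. Their log2 values correlated between paste day 5 and paste day 15 at 0.98 for replicate 1, the near-identical pair, and at 0.66, 0.88 and 0.32 for replicates 2, 3 and 4. Between paste libraries of different numbers the correlations were 0.36 to 0.70. Replicate 3 was above that range, replicate 2 inside it and replicate 4 under it. Deviations from the group mean, which leave out the level of each feature, correlated at 0.33, 0.19 and -0.02 for replicates 2, 3 and 4 and at -0.61 to 0.37 between different numbers, so all 3 lay inside that range. The same members gave 0.95 to 0.96 for each control number, where the choice of members fixed a high value.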
